A study of Mus musculus with 6 samples.

Results

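The genes described here carry symbols that begin with Bbs, Ift or Cep and a digit, and they were taken by symbol from the per-library expression files. They encode parts of the BBSome, of intraflagellar transport (IFT) and of the centrosome. Of 59 such symbols, 53 had at least 1 Ensembl transcript in all 6 files, and all 53 were above 0 in at least 1 library, out of 25202 such genes in the whole series. They comprised 6 BBSome genes, 12 IFT genes, 33 centrosomal genes and 2 noncoding RNAs named after a neighbouring member (Cep112it and Ift88os). The other 6 symbols (Bbs1, Cep78, Ift20, Ift57, Cep112os1 and Cep83os) had transcripts in some of the files only, and Bbs12, Cep55 and Cep120 were not analysed here.

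A primary cilium grows from a centriole that has docked at the cell membrane, and in rods and cones it is enlarged into the light-sensing outer segment. IFT-B complexes carry cargo outward along the cilium with kinesin, IFT-A complexes carry it back with dynein, and the BBSome rides on these trains and moves membrane proteins out of the cilium. Cep proteins build and duplicate centrioles, form the appendages by which a centriole docks, or sit at the transition zone that gates the cilium, and inherited defects in several of these genes cause retinal dystrophy.

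Retinas of C57BL/6 wild type mice, labelled as postnatal week 5, were compared after an injury that all animals received. The injury was an injection into the vitreous of NMDA, which overactivates glutamate receptors and kills neurons of the inner retina, and 2 days later came a second injection of either recombinant SCF (stem cell factor, the ligand of the receptor c-kit; NMDA + SCF, 3 libraries) or PBS (NMDA + PBS, 3 libraries). Whole retinas were collected 1 week after that injection, so no uninjured retina is among these libraries, and the number of mice behind a library is not given in the sources used here. The p-values therefore measure the spread between libraries, which may be technical, and a smaller number of cells of a type cannot be told apart from less RNA per cell.

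Expression was given as FPKM (fragments scaled to transcript length and to the depth of the library) for each transcript, and FPKM was summed per gene over transcripts present in all 6 files. The clean reads ranged from 44925938 to 48783182 per library, and the fragments that the FPKM values count ranged from 3404324 to 4440578. The files follow 2 transcript lists. The 3 NMDA + SCF libraries and NMDA + PBS replicate 1 share list A, while NMDA + PBS replicates 2 and 3 share list B. No NMDA + SCF library follows list B, so a difference between those 2 control libraries and the NMDA + SCF libraries cannot be told apart from a difference between lists, and each result below is also given against NMDA + PBS replicate 1 where that changes it. Rod markers (5 genes) summed to between 2423 and 2895 FPKM in NMDA + PBS and between 2755 and 3323 FPKM in NMDA + SCF. Markers of dividing cells summed to at most 0.633 FPKM in any library, without a value for Ccnb1 and Cdk1 on the shared transcripts. Lens markers, 4 of 5 with a value, summed to between 19.7 and 167 FPKM in NMDA + PBS and between 370.4 and 6769 FPKM in NMDA + SCF, highest in NMDA + SCF replicates 3 and 1, and their part in the results below was not tested.

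Much of the summed FPKM named after these genes came from transcripts that do not encode the protein. FPKM divides by length, so a fragment on a short transcript adds more to such a sum than one on a long transcript. Shares of fragments by group are not given here. Of the 175 member transcripts in both lists, 45 were protein coding and 81 were retained-intron transcripts, 38 were other processed transcripts, 9 were targets of nonsense-mediated decay and 2 were of other types. A further 23 member transcripts belonged to list A alone and 27 to list B alone. The annotation (GENCODE M21, GRCm38) holds 187 coding transcripts for the 51 protein-coding members, and 16 of these 51 genes had no coding transcript in both lists, among them Bbs5, Ift80, Ift88, Cep89 and Cep192. Coding transcripts carried between 70.4 and 89.4% of the summed FPKM of the BBSome genes, between 35.8 and 55.9% for the IFT genes and between 45.5 and 50.9% for the centrosomal genes.

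**Figure D1:**
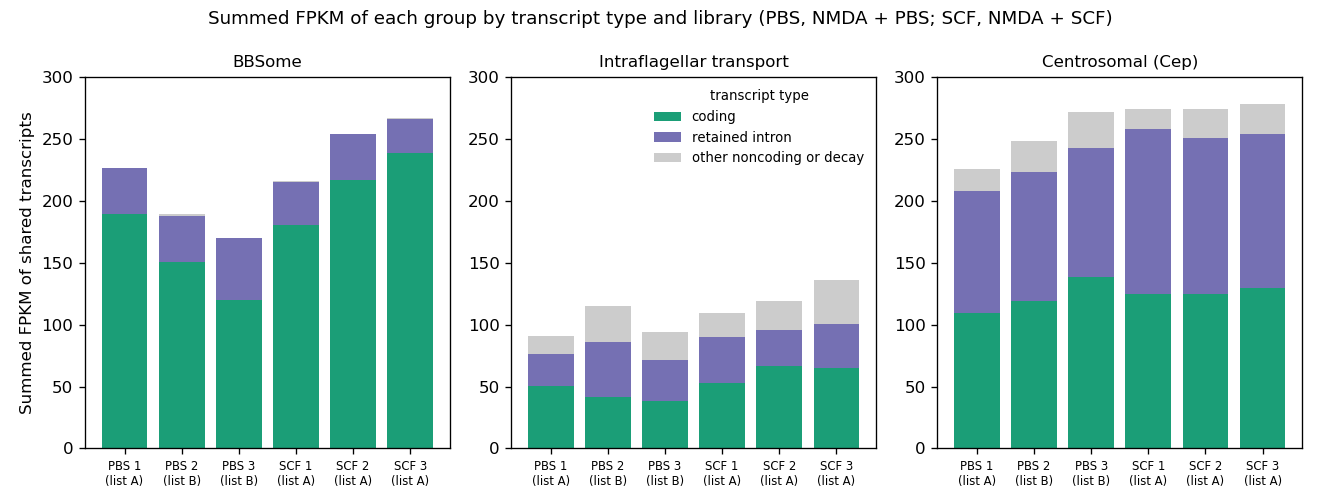
Summed FPKM (vertical axis, from 0) of the BBSome, IFT and centrosomal genes in each of the 6 libraries, split into coding, retained-intron and other transcripts, with the transcript list under each library. BBSome FPKM lies mostly on coding transcripts (70.4 to 89.4%), while retained-intron transcripts hold between 38.2 and 48.6% of the centrosomal sum of FPKM.

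The summed FPKM of the 6 BBSome genes was 226.9, 189.6 and 169.9 in the control libraries (NMDA + PBS, here and below in the order of replicates 1 to 3) and 216, 254.2 and 266.8 in the treated libraries (NMDA + SCF, likewise), so the groups overlapped. That of the 12 IFT genes was 90.5, 114.9 and 94.1 in NMDA + PBS and 109.4, 118.9 and 136 in NMDA + SCF, which also overlapped. That of the 33 centrosomal genes was 225.7, 248.5 and 272.2 in NMDA + PBS and 274.5, 274.1 and 278 in NMDA + SCF. The lowest NMDA + SCF library (replicate 2) lay 0.7% above the highest NMDA + PBS library (replicate 3). Cep290, described below, gave 31.2, 5.03 and 4.35 FPKM of these sums in NMDA + PBS and 34, 43.9 and 39.7 in NMDA + SCF. That gap is smaller than the difference in Cep290 between the same libraries. Summed fragments of the centrosomal genes were 2381, 3036 and 3958 in NMDA + PBS and 2848, 2948 and 2892 in NMDA + SCF. They overlapped, also when scaled to library depth. These sums are given as a description. Per gene, the BBSome genes had the highest median of mean FPKM (9.59), followed by the centrosomal genes (4.15) and the IFT genes (3.47), and all 3 ranges overlapped widely. With 6 genes, the BBSome median falls between Bbs2 (mean 3.99 FPKM) and Bbs5 (15.2 FPKM). All of the Bbs5 FPKM lay on transcripts that do not code for the protein. Of the 53 members, 40 (75.5%) reached a mean of 1 FPKM, against 55.6% of all genes. The comparison was not split by gene type. FPKM above 0 on a coding transcript in both lists was found for 35 of the 53 members and 11983 of the 25202 genes.

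Bbs4, a BBSome subunit that links the complex to pericentriolar material (chr9:59321990-59353508, minus strand, GRCm38), was the member of highest level. It stood at 186, 146.8 and 112.8 FPKM in the NMDA + PBS libraries and at 173, 209 and 231.5 FPKM in the NMDA + SCF libraries. Its coding transcript ENSMUST00000026265 carried 98.7% of this, and Bbs4 alone made up between 66.4 and 86.8% of the BBSome sum. NMDA + PBS replicate 1 lay inside the NMDA + SCF range and the groups overlapped. The log2 fold change was 0.48 (SE 0.23, limma unadjusted p = 0.078, adjusted p = 0.545) over all libraries and 0.13 against NMDA + PBS replicate 1. The next member in order of level, Ift22, reached at most 53.1 FPKM.

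The other BBSome subunits were present at lower levels. Bbs7, part of the subcomplex that starts BBSome assembly, stood at 18, 23.2 and 33.5 FPKM in NMDA + PBS and at 20.5, 23.3 and 19.5 FPKM in NMDA + SCF. Bbs5, which binds membrane phosphoinositides, stood at 18.3, 10.2 and 20.5 FPKM in NMDA + PBS and at 16.4, 16.4 and 9.38 FPKM in NMDA + SCF, all of it on transcripts that do not code for the protein. Bbs2, another core subunit, stood at 3.21, 5.27 and 1.62 FPKM in NMDA + PBS and at 5.19, 3.66 and 5.02 FPKM in NMDA + SCF. Bbs9, a scaffold of the complex, stood at 0.798, 3.27 and 1.5 FPKM in NMDA + PBS and at 0.937, 1.28 and 1.27 FPKM in NMDA + SCF. The groups overlapped for each of these 4 genes, and the smallest of their unadjusted p values was 0.27 (Bbs2, limma). The coding transcript of Bbs2 taken alone stood at 2.01, 2.71 and 1.62 FPKM in NMDA + PBS and at 4, 3.66 and 4.44 FPKM in NMDA + SCF, without overlap, and Bbs2 had an unadjusted p at or below 0.05 in the limma fit of coding transcripts and with voom. Bbs10, which resembles a chaperonin and helps to assemble the BBSome, had between 0 and 10 fragments per library.

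Bbs1, a subunit often affected in human Bardet-Biedl syndrome, could not be compared. Its only listed transcript, the coding ENSMUST00000053506, stands in list B alone, where NMDA + PBS replicates 2 and 3 had 98.2 and 99.3 FPKM of it (2188 and 2469 fragments). In those 2 libraries it lay below Bbs4 and above every other BBSome gene. Its level in NMDA + SCF was therefore not analysed here.

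Among IFT-B genes, Ift22, a small GTPase-like subunit (chr5:136908150-136915404, plus strand, GRCm38), had the highest level. It stood at 41.6, 30.7 and 25.9 FPKM in NMDA + PBS and at 42.7, 49 and 53.1 FPKM in NMDA + SCF. The groups did not overlap, with a gap of 2.54% between the highest NMDA + PBS library, replicate 1, and the lowest NMDA + SCF library. The log2 fold change was 0.57 (SE 0.22, limma unadjusted p = 0.033, adjusted p = 0.536) over all libraries and 0.20 against NMDA + PBS replicate 1. Coding transcripts held 90.9% of its FPKM.

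Ift27, the IFT subunit that helps the BBSome leave the cilium, stood at 12.2, 20.3 and 20.3 FPKM in NMDA + PBS and at 19, 13.6 and 24.2 FPKM in NMDA + SCF. Ift46, another IFT-B subunit, stood at 12.6, 19.7 and 15 FPKM in NMDA + PBS and at 20.9, 19.1 and 16.6 FPKM in NMDA + SCF. For both genes the libraries of the groups were interleaved. Ift52, a core IFT-B subunit, stood at 4.76, 8.95 and 3.91 FPKM in NMDA + PBS and at 8.25, 11.6 and 17.3 FPKM in NMDA + SCF. Fitted over all libraries, the log2 fold change of Ift52 was 0.98 (SE 0.36, limma unadjusted p = 0.030, adjusted p = 0.536), although NMDA + PBS replicate 2 lay above NMDA + SCF replicate 1. That value rests on between 6 and 21 fragments per library. A noncoding transcript of 332 bases held most of them in every library but NMDA + PBS replicate 3, where it held 4 of 8, and coding transcripts held 1.75% of the Ift52 FPKM.

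Of the lower IFT-B genes, Ift88, whose loss stops photoreceptor outer segments from forming, stood at 2.64, 4.37 and 5.81 FPKM in NMDA + PBS and at 3.38, 4.49 and 1.92 FPKM in NMDA + SCF, from transcripts that are not coding. Ift172, which meets the IFT-A complex, stood at 2.61, 5.97 and 1.52 FPKM in NMDA + PBS and at 1.4, 3.16 and 4.32 FPKM in NMDA + SCF. Ift80 stood at 1.25, 6.03 and 7.07 FPKM in NMDA + PBS and at 0.983, 0.943 and 2.28 FPKM in NMDA + SCF. Ift80 had a log2 fold change of -1.11 (SE 0.54, limma unadjusted p = 0.077), and against NMDA + PBS replicate 1, which sat among the NMDA + SCF libraries, it had one of 0.050. Ift81, which binds tubulin together with Ift74, stayed at or below 0.72 FPKM in every library.

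Ift74 differed between the lists. Its full coding transcript ENSMUST00000030311 stands in list A only, at 17.0 FPKM in NMDA + PBS replicate 1 and at 15.1, 17.1 and 22.3 FPKM in the NMDA + SCF libraries, so the control lay inside the NMDA + SCF range. The transcripts in both lists gave 1.22, 0.44 and 1.18 FPKM in NMDA + PBS and 0.511, 1.68 and 2.05 FPKM in NMDA + SCF, which overlapped. Ift20, which ferries cargo from the Golgi apparatus, had its coding transcript in list B only (NMDA + PBS replicate 2 at 19.4 and replicate 3 at 7.89 FPKM), and Ift57 was listed at 0 in both of those libraries.

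Among the IFT-A genes with Ift symbols, the groups overlapped for Ift122 and Ift140. Ift122, a core subunit, stood at 9.32, 15 and 10.4 FPKM in NMDA + PBS and at 10.1, 10.6 and 11 FPKM in NMDA + SCF. Ift140, another core subunit, stood at 2.08, 2.72 and 2.68 FPKM in NMDA + PBS and at 1.92, 4.08 and 2.21 FPKM in NMDA + SCF. Ift43 had at most 2 fragments in any library.

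**Figure D2:**
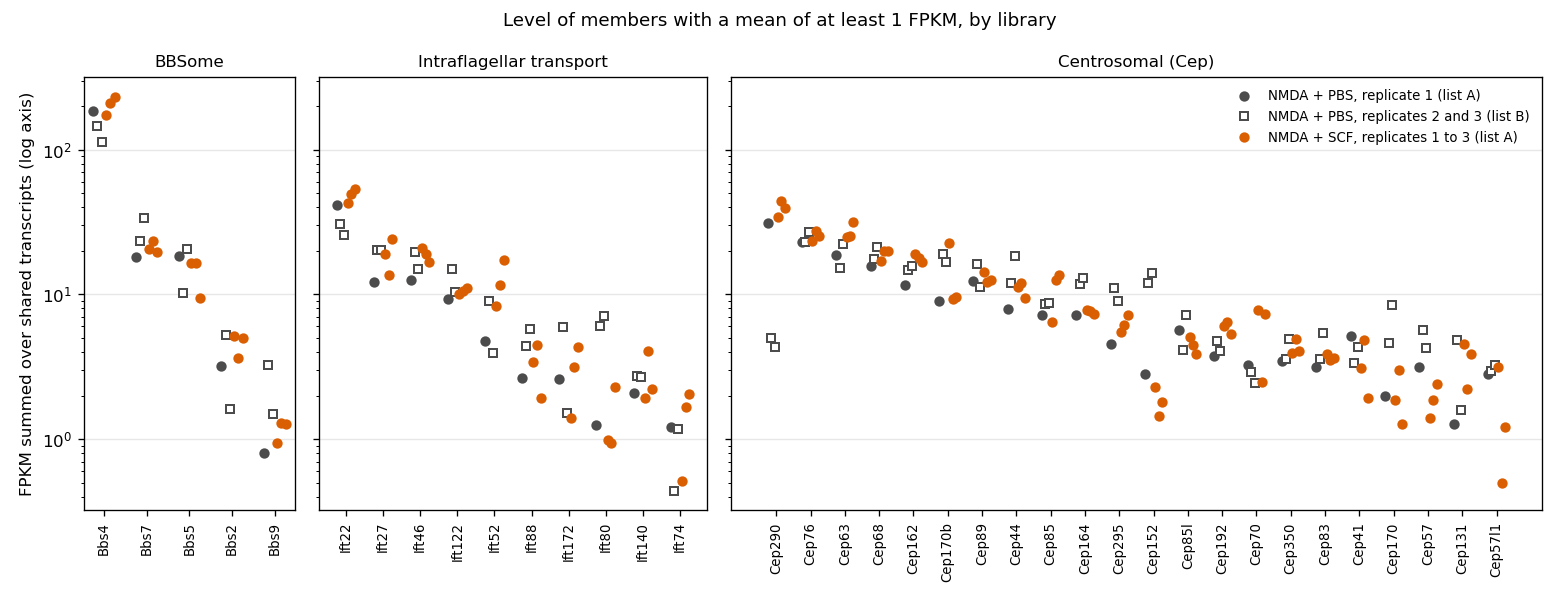
FPKM (log axis) of BBSome, IFT and centrosomal genes with a mean of at least 1 FPKM, 1 point per library, grey for NMDA + PBS and orange for NMDA + SCF, open squares for the 2 libraries of list B. Bbs4 lies above all other genes plotted (113 to 231.5 FPKM), and for Cep290, Cep152 and Ift80 the open squares stand apart from the other 4 libraries.

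Among the centrosomal genes, Cep76, which limits centriole duplication, stood at 23, 22.9 and 27.1 FPKM in NMDA + PBS and at 23.3, 27.2 and 25.3 FPKM in NMDA + SCF. Cep68, which ties centrosomes to each other, stood at 15.6, 17.5 and 21.4 FPKM in NMDA + PBS and at 17, 20 and 19.9 FPKM in NMDA + SCF. Both genes were mostly or wholly coding, and in both the groups overlapped.

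Cep63, a partner of Cep152 in centriole duplication (chr9:102584588-102626534, minus strand, GRCm38), stood at 18.6, 15.1 and 22.2 FPKM in NMDA + PBS and at 25.1, 25.4 and 31.4 FPKM in NMDA + SCF. The groups did not overlap, and the log2 fold change was 0.53 (SE 0.21, limma unadjusted p = 0.035, adjusted p = 0.536). Unlike the value of Bbs4, that of Cep63 was nearly as large against NMDA + PBS replicate 1 alone (0.52) as against replicates 2 and 3 (0.54). Coding transcripts held 36% of its FPKM, and the larger share of FPKM lay on a retained-intron transcript of 484 bases. That transcript had 17, 16 and 31 of the 112, 105 and 144 Cep63 fragments in NMDA + PBS. In NMDA + SCF it had 27, 29 and 31 of 132, 134 and 165. On coding transcripts only the log2 fold change of Cep63 was 0.26. Part of a coding transcript of Cep63 overlaps exons of Anapc13 on the opposite strand over 211 bases, and whether the counting used strand is not given in the sources used here.

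Cep162, which tethers the transition zone to microtubules, stood at 11.6, 14.8 and 15.6 FPKM in NMDA + PBS and at 18.9, 17.7 and 16.8 FPKM in NMDA + SCF, mostly coding (95.7%), with a log2 fold change of 0.33 (SE 0.19, limma unadjusted p = 0.12). Cep192, a scaffold that recruits kinases to the centrosome, stood at 3.74, 4.76 and 4.07 FPKM in NMDA + PBS and at 6.05, 6.4 and 5.29 FPKM in NMDA + SCF, with no coding transcript in both lists and a log2 fold change of 0.42 (SE 0.23, limma unadjusted p = 0.11). In neither gene did the groups overlap in FPKM. Cep192 rests on 10, 30 and 21 fragments in NMDA + PBS and on 17, 18 and 20 in NMDA + SCF, which overlapped. A retained-intron transcript of 524 bases held 2, 3 and 2 of these fragments in NMDA + PBS and 8, 6 and 7 in NMDA + SCF. The appendage gene Cep89 stood at 12.3, 16.3 and 11.3 FPKM in NMDA + PBS and at 14.3, 12.1 and 12.6 FPKM in NMDA + SCF, with the groups interleaved. Cep170b stood between 8.96 and 22.8 FPKM, Cep44 between 7.86 and 18.5 FPKM and Cep85 between 6.4 and 13.6 FPKM, and their groups overlapped.

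Cep290, a protein of the transition zone whose loss causes early retinal dystrophy (chr10:100487558-100574840, plus strand, GRCm38), had the largest positive fold change of the members. It stood at 31.2, 5.03 and 4.35 FPKM in NMDA + PBS and at 34, 43.9 and 39.7 FPKM in NMDA + SCF. The 4 libraries of list A lay between 31.2 and 43.9 FPKM and the 2 of list B at or below 5.03 FPKM. The log2 fold change was 1.98 (SE 0.64, limma unadjusted p = 0.017, adjusted p = 0.536) over all libraries and 0.31 against NMDA + PBS replicate 1. Without NMDA + PBS replicate 1 it was 2.82, and Cep290 was then the only member past the thresholds in the methods of the study, which are a change of at least 2-fold and an adjusted p at or below 0.001 (limma adjusted p = 0.00065).

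A single transcript carried this. ENSMUST00000219889, a retained-intron transcript of 2170 bases at the end of the gene (chr10:100571934-100574840), stood at 28.6, 1.62 and 1.25 FPKM in NMDA + PBS and at 32.8, 38.8 and 37.8 FPKM in NMDA + SCF. It held between 88.3 and 96.4% of the Cep290 sum in the list A libraries and 32.2 and 28.6% in the list B libraries. The other shared Cep290 transcripts summed to 2.66, 3.41 and 3.11 FPKM in NMDA + PBS and to 1.22, 5.13 and 1.87 FPKM in NMDA + SCF, and overlapped. The exons of this transcript overlap those of the gene 4930430F08Rik on the opposite strand over 881 bases (40.6% of its length), and the transcripts of that gene which overlap it stand in neither list under an Ensembl name. Reads of both genes cannot be told apart there without strand.

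Cep152, a scaffold that starts new centrioles with Cep63 (chr2:125563088-125625113, minus strand, GRCm38), had the largest negative fold change and the opposite layout. Its single coding transcript stood at 2.80, 12 and 14.1 FPKM in NMDA + PBS and at 2.28, 1.44 and 1.8 FPKM in NMDA + SCF (55, 276 and 361 fragments against 45, 29 and 36). The libraries of list A lay between 1.44 and 2.80 FPKM. The log2 fold change was -1.69 (SE 0.53, limma unadjusted p = 0.015, adjusted p = 0.536) over all libraries and -0.43 against NMDA + PBS replicate 1, and without that library it was -2.31 (limma adjusted p = 0.0061).

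Cep57, which organises pericentriolar material, stood at 3.15, 5.67 and 4.29 FPKM in NMDA + PBS and at 1.4, 1.87 and 2.41 FPKM in NMDA + SCF, without overlap. Its log2 fold change was -0.88 (SE 0.31, limma unadjusted p = 0.025, adjusted p = 0.536) and -0.54 against NMDA + PBS replicate 1. It rests on between 2 and 11 fragments per library, and was -0.046 on coding transcripts only. A further 4 Cep57 transcripts stand in list B only, and with all listed transcripts the value was -2.50. Among the other lower values, Cep170, an appendage protein, stood at 1.97, 4.62 and 8.38 FPKM in NMDA + PBS and at 1.85, 2.98 and 1.28 FPKM in NMDA + SCF (log2 fold change -0.86, SE 0.47, limma unadjusted p = 0.11), and was -0.0063 against NMDA + PBS replicate 1 and -0.18 on coding transcripts only. Cep57l1, a paralogue of Cep57, stood at 2.79, 2.98 and 3.26 FPKM in NMDA + PBS and at 3.13, 0.498 and 1.2 FPKM in NMDA + SCF (log2 fold change -0.75, SE 0.42, limma unadjusted p = 0.12).

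**Figure D3:**
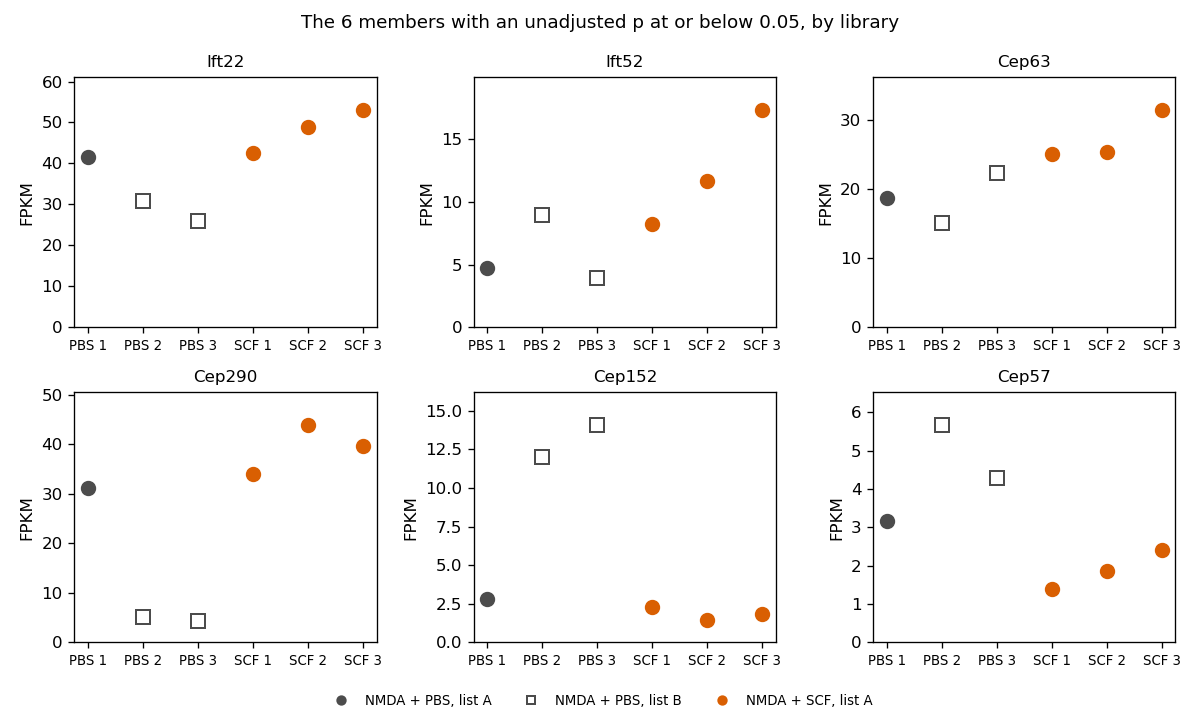
FPKM (vertical axes, from 0) by library of the 6 members with an unadjusted p at or below 0.05, filled circles for libraries of list A and open squares for list B. In Cep290 (31.2 against 5.03 and 4.35) and Cep152 (2.80 against 12 and 14.1) the NMDA + PBS library of list A sits beside the NMDA + SCF libraries and away from the other controls.

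Over all members, none met both a 2-fold change and an adjusted p of 0.001 in limma (0 of 53, against 0% of all genes tested). None had a limma adjusted p at or below 0.05 at any fold change (0 of 53, again against 0%). The smallest adjusted p of a member was 0.536. The study does report genes past the first pair of thresholds, from its own analysis, which was not repeated here. With voom on the recovered fragments, 0 members had an adjusted p at or below 0.05. At an unadjusted p of 0.05, 4 of 53 members (7.55%) were higher in NMDA + SCF (Cep290, Cep63, Ift22 and Ift52), against 4.33% of all genes, and 2 (3.77%) were lower (Cep152 and Cep57), against 4.9% of all genes. The groups did not overlap in 6 members higher in NMDA + SCF (11.3%, against 7.63% of all genes) and in 2 lower (3.77%, against 6.45%). In these 8 the two-sided exact permutation p was 0.1, the smallest that 3 against 3 libraries allow. These shares differ from those of all genes by a few genes at most.

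The 6 members depended on which libraries entered. The share of all genes at this threshold is given for the fit over all libraries only, so the counts below stand without one. Without NMDA + PBS replicate 1, 4 were higher and 6 lower. Without NMDA + PBS replicate 2 it was 1 and 0, and without NMDA + PBS replicate 3 it was 1 and 1. Without NMDA + SCF replicate 1, 2 or 3 it was 5 and 2, 1 and 1, and 1 and 2. The members at this threshold in a fit of coding transcripts alone were Bbs2, Ift22 and Cep152. With voom they were Bbs2, Bbs4, Cep290 and Ift22 (higher) and Cep152 and Ift80 (lower), so that Cep63, Ift52 and Cep57 were not among them. Under either other scaling and under the replicate block, Cep63 and Ift22 were above an unadjusted p of 0.05, and the higher members were then Cep290 and Ift52.

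The median log2 fold change, NMDA + SCF over NMDA + PBS on the log2(FPKM + 1) scale, was -0.19 for the 6 BBSome genes, 0.079 for the 12 IFT genes and -0.055 for the 33 centrosomal genes, beside -0.0058 for all 25202 genes. The signs of these medians depended on the libraries and transcripts used. The median of the BBSome genes was 0.30 on coding transcripts only and 0.17 against NMDA + PBS replicate 1, that of the centrosomal genes was 0.14 against the same library, and that of the IFT genes was -0.080 without it. Of the 53 members, 25 had a positive and 28 a negative value. By role, the median was -0.027 for the 11 centriole assembly genes, -0.075 for the 5 appendage genes and 0.17 for the 7 genes of the transition zone and cilium formation. NMDA + PBS replicate 1 lay nearer to the mean of NMDA + SCF than to that of the other NMDA + PBS libraries in 29 members (54.7%), against 58.6% of all genes. That library held the lowest value of 16 of the 46 members with an untied lowest value (34.8%, against 19% of all genes). The highest value lay in NMDA + PBS replicate 2 in 13 of the 53 members (24.5%, against 18.8% of all genes) and in NMDA + PBS replicate 3 in 17 (32.1%, against 23.2%).

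**Figure D4:**
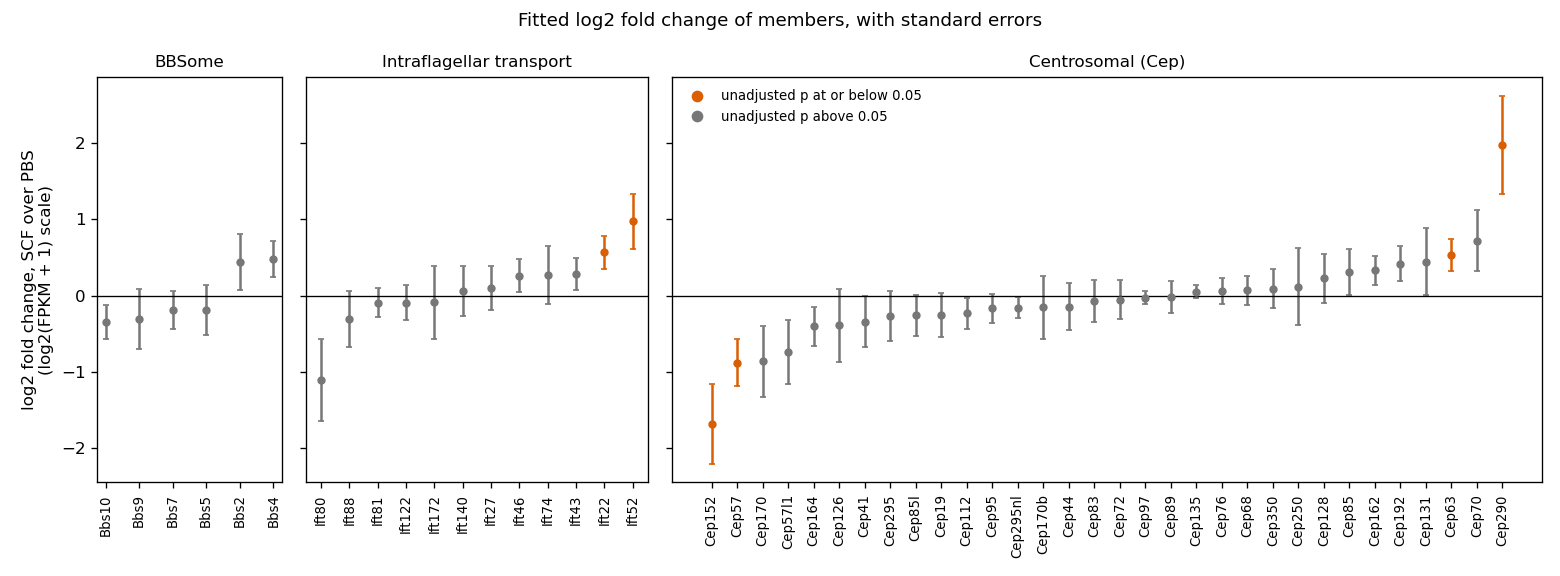
Fitted log2 fold change of BBSome, IFT and centrosomal members, NMDA + SCF over NMDA + PBS (vertical axis, log2(FPKM + 1) scale), with its standard error from limma over 3 against 3 libraries, orange where the unadjusted p was at or below 0.05. Values run from -1.69 (Cep152) to 1.98 (Cep290), and most error bars reach or lie near 0.

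Of 73 partner genes of these pathways that carry other symbols, 63 had a value. None passed an adjusted p of 0.05 in limma, and at an unadjusted p of 0.05, 2 were higher (3.17%, against 4.33% of all genes) and 4 lower (6.35%, against 4.9%) in NMDA + SCF. Wdr19, an IFT-A subunit, stood at 9.2, 5.58 and 8.93 FPKM in NMDA + PBS and at 14.4, 13.3 and 13 FPKM in NMDA + SCF (log2 fold change 0.73, limma unadjusted p = 0.017, adjusted p = 0.536). Unc119, which carries lipid-modified proteins to the rod outer segment, stood at 97, 92.3 and 59.2 FPKM in NMDA + PBS and at 140.7, 156 and 163.9 FPKM in NMDA + SCF (log2 fold change 0.91, limma unadjusted p = 0.0045, adjusted p = 0.536). In both, all 3 NMDA + SCF libraries lay above all 3 NMDA + PBS libraries, replicate 1 included.

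The 4 partner genes that were lower were Tubg1, Kif3b, Rpgrip1l and Cntrl. Tubg1, the gamma-tubulin that nucleates microtubules at the centrosome, stood at 9.47, 72.5 and 47.7 FPKM in NMDA + PBS and at 8.04, 4.37 and 4.91 FPKM in NMDA + SCF. Kif3b, a subunit of the kinesin that drives outward IFT, was listed at 0 in all 4 libraries of list A and stood at 102 and 119.9 FPKM in the 2 libraries of list B. Rpgrip1l, of the transition zone, stood at 0.229, 6.12 and 7.12 FPKM in NMDA + PBS and at 0.364, 0.359 and 0 FPKM in NMDA + SCF. Cntrl, a protein of the centriole's appendages, stood at 0.349, 2 and 1.24 FPKM in NMDA + PBS and at 0, 0.447 and 0.106 FPKM in NMDA + SCF. In all 4 genes, as in Cep152, NMDA + PBS replicate 1 stood on the side of the NMDA + SCF libraries. By role, beside the same shares of all genes, 1 of 10 IFT subunits was higher, 1 of 6 motor genes was lower, 1 of 18 transition zone genes was lower, 1 of 10 genes of the photoreceptor axoneme and lipidated-protein transport was higher, 2 of 12 other centrosomal genes were lower, and none of 7 BBSome partners passed.

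Promoters were searched for the X-box, the site bound by RFX factors, which are known regulators of ciliary genes, because it is a sequence feature that the choice of genes did not use. The motif was spelled GTNNCC and, 3 bases further on, GNAAC, on either strand, and a site that matches on both strands was counted once. RefSeq promoters (GRCm38.p6, from 250 bases before to 50 bases from the start of the gene) were found for 48 of the 59 symbols. The motif was present for 10 of these (20.8%), against 2.49% of the 27025 symbols with a promoter. They were 3 of 7 BBSome genes (Bbs1, Bbs4, Bbs7), 2 of 11 IFT genes (Ift22, Ift57), 4 of 29 centrosomal genes (Cep19, Cep44, Cep83, Cep112) and the noncoding Cep83os, which shares a site with Cep83. The matches are a description of letters, and binding was not measured. The sites of the members of higher level are shown on the strand of the gene, with the match in capitals.
Bbs4 (chr9:59353464-59353493): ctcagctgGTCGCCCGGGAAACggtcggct
Bbs7 (chr3:36613489-36613518): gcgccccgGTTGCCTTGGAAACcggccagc
Ift22 (chr5:136908109-136908138): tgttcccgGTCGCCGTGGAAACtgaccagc
Cep44 (chr8:56550661-56550690): ttggtacgGTAGCCTTGGGAACctttcagt
Cep83 (chr10:94688768-94688797): ccctccgaGTTTCCCGGGCTACctcaacct

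Bbs4 and Ift22, whose sites are among those shown, were also the members with the highest mean FPKM of the BBSome and IFT groups. The match lay 33 bases before the start in Ift22, which had a further match 63 bases before it, and began 23 bases after it in Bbs4. In Bbs7 and Cep44 it lay 121 and 116 bases before the start. In Cep83 the letters match on the opposite strand. Cep112 and Cep19 hold the motif as well, and their mean levels were 0.175 and 0.497 FPKM, so a match was found at both ends of the range of levels. Cep290, Cep152, Cep57, Cep63 and Ift52 held no match in this window.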

How the data were processed

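mRNA of mouse retina was enriched with oligo(dT) beads and sequenced on an Illumina HiSeq in 6 libraries. The authors deposited FPKM values per transcript for each library, and a table of read totals with the count of clean reads and the percent of bases at Q30 (92.9 to 94.3 percent). The aligner and the counter are not given in the sources used here. The submitters' processing notes name the build mm9, whereas 98.0% of the Ensembl transcript positions in the deposited files are those of GENCODE M21 (GRCm38), so coordinates are given on GRCm38. Assembled transcripts without an Ensembl identifier have no gene symbol and were not used.

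A gene's FPKM is the sum over those of its transcripts that both lists hold (46933 in all), since 7529 belong to list A alone and 8966 to list B alone. Genes above 0 in at least 1 library (25202) were fitted with limma 3.58.1 in R 4.3.3 (variance trend) on log2(FPKM + 1), with condition as the only term and Benjamini-Hochberg adjustment over all genes. Fold changes on this scale understate those of low genes. A count model was not used, because the deposited values are FPKM. Multiplied by length, FPKM fell within 0.05 of a whole fragment for 98.4 to 98.5% of values, which gave the fragments used for depth and for voom. These fragments were 14.1 to 18.2% of the read pairs, so a gene listed at 0 has 0 counted fragments only, and counts of 3 or fewer are taken as the floor. The fit was tested on simulated data with known changes.

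Members, roles, partner genes and marker lists were chosen with earlier results of these data known. The genes named are every BBSome and IFT gene with a mean of at least 1 FPKM and the 10 Cep genes of highest mean. Also named are the 5 members of smallest p in each direction and members needed to show a range, a 0 or a listing. Bbs9, Ift74, Cep89 and Cep290 were added because a supplement of the study lists them, so they are not independent. It marks each of them as up with SCF. In the main fit here their log2 fold changes were -0.31, 0.27, -0.017 and 1.98, in that order. The same supplement marks Tubg1 as down. Wdr19, Unc119, Tubg1, Kif3b, Rpgrip1l and Cntrl were named after their values were seen. The values of 1 member by the rule are not reported here, and it is left out of the plots of single genes. The alternatives were 2 other scalings, a filter at 1 FPKM, a pseudocount of 0.1, all listed or only coding transcripts, voom, a replicate block, omission of each library in turn, and NMDA + PBS replicate 1 as the only control. Tables and plots were made with Python and matplotlib.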

Additional observations from a re-analysis of the deposited data

Results flagged for a closer look

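The 23 member transcripts that stand in list A only did not enter the main fit. Of these, 2 were higher in each NMDA + SCF library than in the single NMDA + PBS library of that list. Both had more than 3 fragments in each NMDA + SCF library. The share of all transcripts of list A alone with this layout is not given here. The first was the retained-intron Cep290 transcript ENSMUST00000218703, at 3.97 FPKM (19 fragments) in NMDA + PBS replicate 1. It stood at 4.77, 6.74 and 4.11 FPKM (23, 33 and 20 fragments) in the NMDA + SCF libraries (mean 5.21). The other was the full coding transcript of Ift52, ENSMUST00000018002, at 0.523 FPKM (4 fragments) in NMDA + PBS replicate 1 and at 1.17, 1.92 and 2.83 FPKM (9, 15 and 22 fragments) in the NMDA + SCF libraries (mean 1.97). With 1 control library neither difference could be tested.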

How the results depend on the processing

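No member met both a 2-fold change and an adjusted p of 0.001 under any alternative run, with the exception of Cep290 without NMDA + PBS replicate 1, so that this count ranged from 0 to 1 with each library left out in turn. Members higher at an unadjusted p of 0.05 numbered 4, 6 with all listed transcripts, 2 with upper quartile scaling, with median-of-ratios scaling, with coding transcripts only and with the replicate block, and from 1 to 5 with a library left out. Members lower numbered 2, 7 with all listed transcripts (among them Bbs1, Cep78 and Ift20, whose values come from list B alone), 1 with coding transcripts only, and from 0 to 6 with a library left out. The shares of all genes at this threshold in these alternative runs are not given here. The median of the BBSome genes was 0.30 on coding transcripts, 0.17 against NMDA + PBS replicate 1 and between -0.29 and 0.016 with a library left out. That of the IFT genes lay between -0.080 and 0.20 and that of the centrosomal genes between -0.097 and 0.015 with a library left out, and the latter was 0.14 against NMDA + PBS replicate 1. On coding transcripts only, the log2 fold change of Cep290 was -0.26, of Ift52 -0.12, of Cep57 -0.046, of Cep170 -0.18, of Cep63 0.26 and of Cep57l1 0.14, and against NMDA + PBS replicate 1 that of Ift80 was 0.050. Without NMDA + PBS replicate 1, Cep290 (2.82) and Cep152 (-2.31) passed an adjusted p of 0.05, as did 909 genes in all, and in that fit list and condition cannot be told apart. For the other changes the cause was not tested. Deviations of same-numbered libraries correlated at -0.050, -0.046 and -0.077 over 14013 genes, so the replicate numbers were not taken as pairs, and the replicate block left the medians of the 3 groups as they were (-0.19, 0.079 and -0.055) and the count of members past the threshold at 0. Depth limits Cep135, Cep295nl, Cep95, Cep97 and Ift43, with at most 3 fragments in every library.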

Other observations

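Several coding transcripts of these genes with high values stand in list B only, so they were measured in NMDA + PBS replicates 2 and 3 alone. Besides Bbs1, that of Cep78, a protein of the centriole linked to cone-rod dystrophy, stood at 31.7 and 25.6 FPKM (321 and 290 fragments), a level above those of most Cep genes in the same libraries. Cone markers, 4 of 5 with a value, summed to between 56.8 and 96.7 FPKM in NMDA + PBS and between 67.5 and 73 FPKM in NMDA + SCF. Markers of motile cilia summed to between 11.7 and 15.2 FPKM in NMDA + PBS and between 14.6 and 19.3 FPKM in NMDA + SCF, and those of pigment epithelium to between 177.8 and 780.8 FPKM and between 696 and 920.8 FPKM, with overlap in both lists. Of the motile cilia markers, Dnah9 stood between 3.78 and 7.51 FPKM, Ccdc39 between 3.515 and 9.05 FPKM and Rsph1 between 0 and 2.27 FPKM. Foxj1 stayed at or below 0.48 FPKM, Dnah5 at or below 0.0804 FPKM and Hydin at or below 0.13 FPKM. Of the pigment epithelium markers, Ttr stood between 176.1 and 918.9 FPKM. Rpe65 stayed at or below 1.26 FPKM and Best1 at or below 2.09 FPKM in every library.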
